A study of Vuilleminia comedens with 3 samples.

Results

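Enzymes that make and use glutamate, glutamine and gamma-aminobutyrate (GABA) were examined in wood-grown mycelium of Vuilleminia comedens, a crust-forming basidiomycete of broadleaved wood. Transcripts were taken as members where the name of their best database match held glutamate decarboxylase, glutamine synthetase, glutamate synthase, glutamate dehydrogenase, aminobutyrate, or either spelling of succinate-semialdehyde. The rule found 29 of 81106 assembled transcripts, and of 22605 with a database match. They came from 23 assembler genes, which are groups of sequences the assembler treats as isoforms of the same gene, and they matched 13 different entries. All 3 libraries belonged to 1 group, strain VcWVJH1, so there was no comparison between conditions. The fungus grew for about 8 weeks on plates with 0.5% malt extract into autoclaved 2 cm3 blocks of beech, which were scraped clean and set against another block of the same strain at 20 °C for 7 days, with an elastic band until day 3. RNA came from the wood on the side of contact. The labels call the libraries independent biological replicates from separate blocks.

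Wood is poor in nitrogen, and fungi bring ammonium into organic form in 2 ways. Glutamine synthetase joins ammonium to glutamate, and glutamate synthase then passes the amide nitrogen of glutamine to 2-oxoglutarate, which gives glutamate again. Glutamate dehydrogenase links ammonium, 2-oxoglutarate and glutamate directly, in fungi usually with an NADP-dependent enzyme for assimilation and an NAD-dependent enzyme for breakdown of glutamate. In the GABA shunt, glutamate decarboxylase makes GABA from glutamate, an aminotransferase turns GABA into succinate semialdehyde, and succinate-semialdehyde dehydrogenase oxidises this to succinate. The shunt bypasses the 2-oxoglutarate dehydrogenase and succinyl-CoA ligase steps of the citric acid cycle.

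The count columns carried no replicate numbers and are called libraries A, B and C. Their totals were 111754018, 68151997 and 64236917 counts. Because 2 transcripts took most reads, depth is given as residual CPM, reads per 1000000 counts outside those 2, and these outside counts numbered 33450738, 22487890 and 19747416. Levels between genes are compared as RPKM, reads per kilobase of transcript per 1000000 counts of the whole library. Spread means the fold between the highest and the lowest library in residual CPM, also beside RPKM values, unless another scaling is named. Because the denominators differ, folds and library orders in RPKM can differ from those in residual CPM. Values are means ± SD over the 3 libraries (n = 3) unless stated otherwise. All products are names of matched entries in other fungi. Of the members, 15 matched Punctularia strigosozonata, which is of the same order as V. comedens, 13 matched Trametes versicolor and 1 matched Moniliophthora roreri.

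The members together took 1430 ± 118 residual CPM (SD, n = 3). Library A had 1530 residual CPM, library B 1460 and library C 1300, so the family as a whole differed 1.18-fold between its highest and lowest library. In library A this was 0.153% of the outside counts (exact 95% interval 0.152 to 0.154), in B 0.146% (0.144 to 0.148) and in C 0.130% (0.128 to 0.132). These intervals cover counting error only. The median member had 1.28 ± 0.199 RPKM (SD, n = 3). By library the median member had 1.41 RPKM in A, 1.38 in B and 1.05 in C, against 0.589, 0.459 and 0.454 for all annotated transcripts. Of the 29 members, 6 reached a mean of 10 RPKM, or 20.7%, while 10.8% of annotated transcripts did. Members of at least 100 reads and 300 bp numbered 17 and are all named below. The remaining 12 held 0.208% of the member reads.

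**Figure D1:**
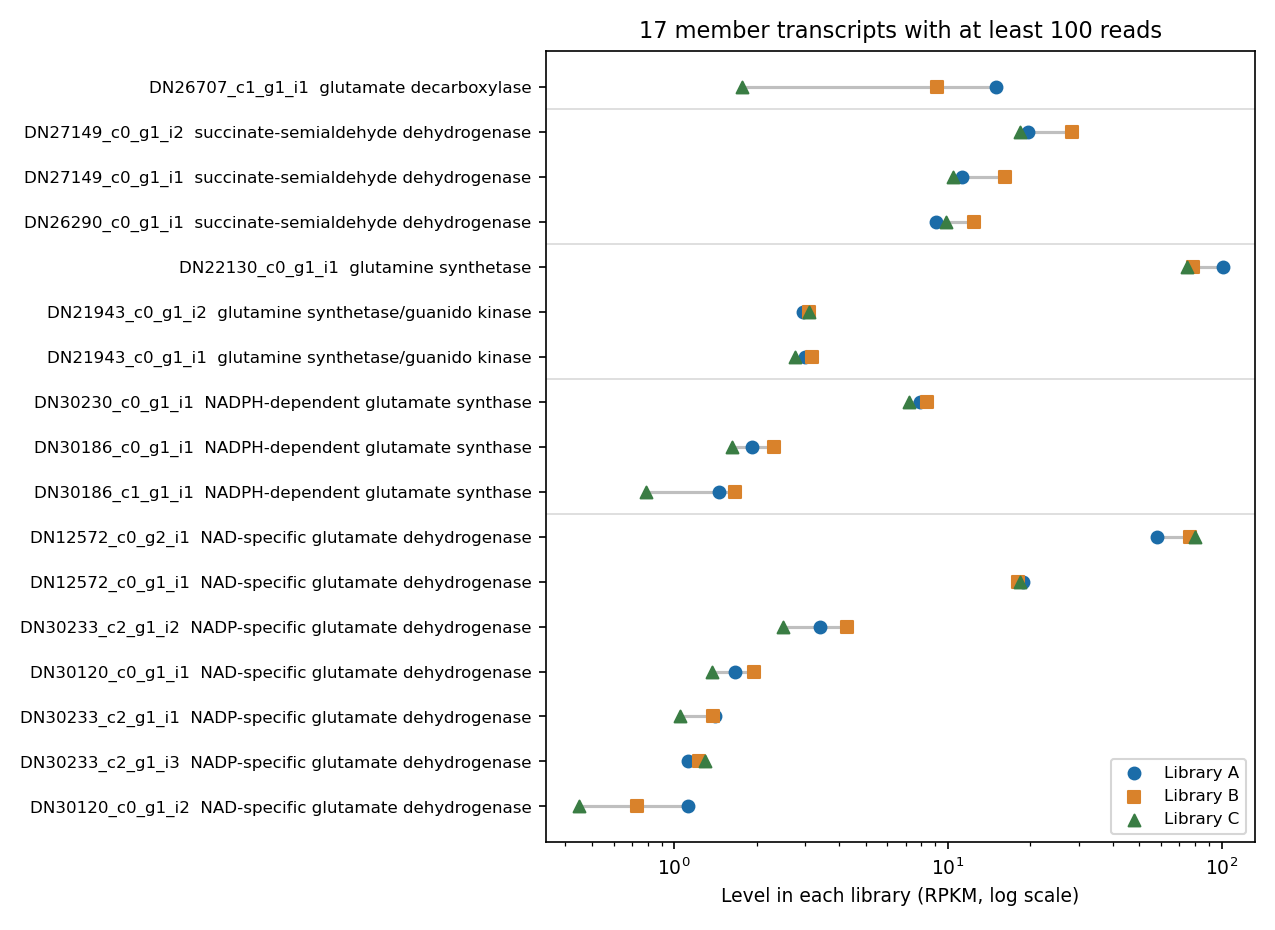
Level in RPKM (log scale) of the 17 member transcripts with at least 100 reads, grouped by enzyme, with 1 point for each library and a line over their range. Glutamate decarboxylase ran from 1.77 RPKM in library C to 14.9 in library A, the widest range of the 17, while the highest glutamine synthetase and glutamate dehydrogenase transcripts stayed between 58.0 and 101 RPKM.

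Glutamate decarboxylase, the entry enzyme of the GABA shunt, stood apart by its spread between the replicate blocks. TRINITY_DN26707_c1_g1_i1 is 2963 bp long and matched PUNSTDRAFT_95460 of P. strigosozonata. It had 4949 counts in A, 1835 in B and 337 in C. Per length this was 14.9 RPKM in A (exact Poisson 95% interval 14.5 to 15.4), 9.09 in B and 1.77 in C (1.59 to 1.97). Library A was high and library C low, and the counting intervals of these libraries did not overlap. The mean was 8.60 ± 6.60 RPKM (SD, n = 3), which ranked 2764 among the 22605 annotated transcripts, and it was 5.43 RPKM without library A.

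In residual CPM the same transcript had 147.9 in A, 81.6 in B and 17.1 in C. Library A was 8.67-fold above library C (95% interval 7.76 to 9.71, counting error only), library B was 4.78-fold above library C (4.25 to 5.39), and library A was 1.81-fold above library B (1.72 to 1.91). The spread was therefore 4.78-fold without library A and 1.81-fold without library C. With CPM on all counts, edgeR's TMM scaling and DESeq2's size factors it was 8.44, 7.94 and 7.92-fold. The biological coefficient of variation that edgeR estimated for this transcript alone was 0.883, and the median over annotated transcripts of at least 100 reads and 300 bp was 0.184.

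Few transcripts with at least 1000 reads varied as much. Among 3946 P. strigosozonata matches with at least 1000 reads, 20 had a spread at least as wide, or 0.507%, and their median spread was 1.36-fold. Of those 20, counting the decarboxylase itself, 3 were highest in A and lowest in C. With a limit of 100 reads it was 53 of 7507 P. strigosozonata matches, or 0.706%. Among annotated transcripts of any match, the share was 0.636% (36 of 5656) at 1000 reads and 2.26% (259 of 11455) at 100 reads. The order of the libraries in decarboxylase level was also their order in sequencing depth, and the part of depth in this was not tested. In residual CPM, the highest glutamate synthase transcript had the same library order within 1.13-fold. The highest transcripts of glutamine synthetase, glutamate dehydrogenase and succinate-semialdehyde dehydrogenase had other orders. In bulk RNA from wood, fewer expressing hyphae and less RNA per hypha cannot be told apart.

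No second isoform of this assembler gene was in the table. A short transcript of 272 bp in the same assembly component, TRINITY_DN26707_c1_g2_i1, had no database match and 41, 44 and 22 counts in A, B and C. The other decarboxylase members both matched T. versicolor entries and were hardly read. TRINITY_DN12377_c0_g1_i1 (401 bp) had 8 counts in A, 6 in B and 0 in C, and TRINITY_DN31514_c0_g1_i1 (249 bp) had 4 counts in A and 0 in the others. A count of 0 allows up to 3 counts, or 0.0440 CPM in B and 0.0467 CPM in C. The class sum of 82.4 ± 65.6 residual CPM (SD, n = 3) was thus almost wholly TRINITY_DN26707_c1_g1_i1.

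**Figure D2:**
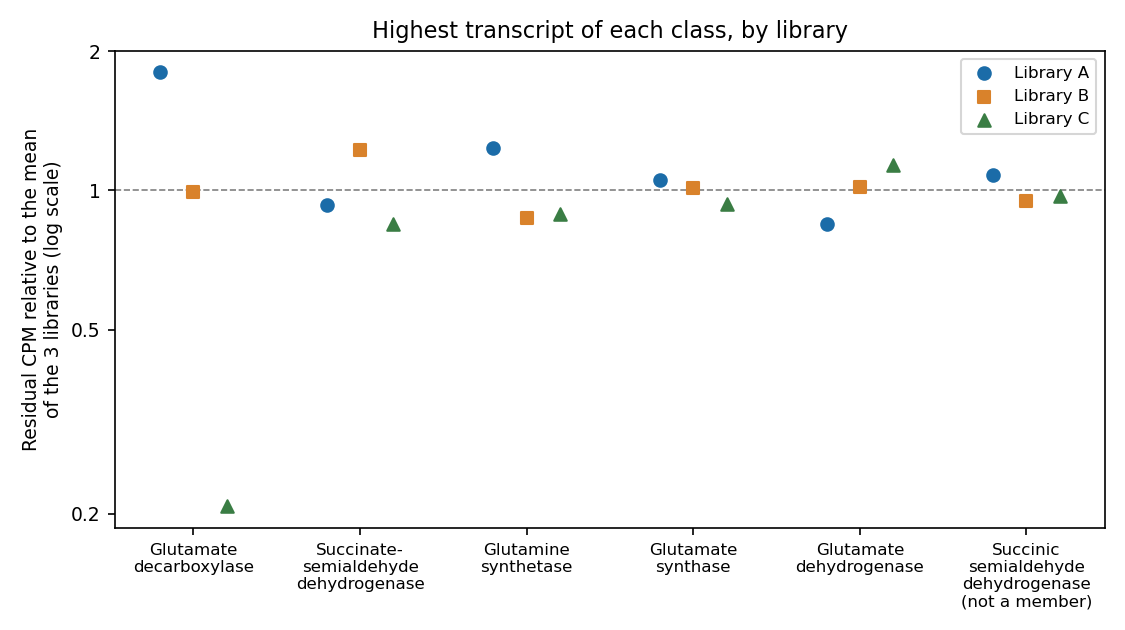
Residual CPM of the highest transcript of each enzyme class in each library, divided by its own mean over the 3 libraries (log scale, dashed line at 1). The succinic semialdehyde dehydrogenase TRINITY_DN39780_c0_g1_i1, which is not a member, is drawn beside them. The glutamate decarboxylase points span 8.67-fold with library A highest, and the other transcripts span 1.13-fold to 1.44-fold with differing library orders.

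The middle step of the shunt had no member. The word aminobutyrate occurred in 0 product names, and the letters gaba in 0 of the 22605 entries. Transcripts for a GABA aminotransferase or a GABA permease under other product names were not sought here.

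The last step, succinate-semialdehyde dehydrogenase, had 4 members and was well represented in every library. TRINITY_DN27149_c0_g1_i2 (2045 bp, T. versicolor match) had 19.6 RPKM in A, 28.3 in B and 18.3 in C. Its isoform TRINITY_DN27149_c0_g1_i1 (3646 bp) had 11.2 RPKM in A, 16.1 in B and 10.4 in C. Library B was the high one for both, and the spread was 1.44-fold for the first and 1.45-fold for the second. The shorter isoform held 97.7% to 99.0% of the count of the longer one in every library. The sources used here do not give how reads shared by isoforms were counted, so the 2 levels are not separate measurements.

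TRINITY_DN26290_c0_g1_i1 (1762 bp), the only member matched to M. roreri, had 9.04, 12.5 and 9.82 RPKM in A, B and C and a spread of 1.25-fold. It too was highest in B. The P. strigosozonata match TRINITY_DN12708_c0_g1_i1 (547 bp) had 40, 14 and 6 counts. The class summed to 349 ± 63.3 residual CPM (SD, n = 3), with 325, 421 and 302 in A, B and C. That sum adds both isoforms of TRINITY_DN27149_c0_g1. With only the isoform of most reads kept for each assembler gene, a setting chosen after seeing the data, it was 206 ± 35.1 residual CPM (SD, n = 3), with 191, 246 and 180.

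A transcript matched to another spelling, succinic semialdehyde dehydrogenase, was not taken in by the rule and was noticed after the values were seen. TRINITY_DN39780_c0_g1_i1 (1075 bp, Stereum hirsutum match STEHIDRAFT_95494) had 190.1 RPKM in A, 184.0 in B and 176 in C, a mean of 183 ± 6.93 (SD, n = 3). Its level per length was 8.60 ± 1.83 times that of TRINITY_DN27149_c0_g1_i2 (SD, n = 3), so most reads named for this step lay outside the members. Its spread was 1.14-fold.

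Set against the last step in the same library, decarboxylase levels differed widely. The RPKM ratio of TRINITY_DN26707_c1_g1_i1 to TRINITY_DN27149_c0_g1_i2 was 0.763 in A, 0.321 in B and 0.0966 in C. To the M. roreri match it was 1.65, 0.727 and 0.180, and to the succinic semialdehyde dehydrogenase 0.0786, 0.0494 and 0.0100. The ratio was highest in A and lowest in C with each of the 3 dehydrogenases, by 7.83-fold to 9.17-fold. Since the decarboxylase is the numerator of every ratio, these are not independent of each other.

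Glutamine synthetase, which fixes ammonium into glutamine, had the member with the highest mean level per length. TRINITY_DN22130_c0_g1_i1 (1378 bp, match PUNSTDRAFT_119432) had 101 RPKM in A, 78.4 in B and 74.5 in C, with 15502, 7362 and 6592 counts. Its mean of 84.5 ± 14.1 RPKM (SD, n = 3) ranked 338 among the 22605 annotated transcripts. Library A was the high one, and the spread in residual CPM was 1.42-fold. In C, the glutamate dehydrogenase transcript TRINITY_DN12572_c0_g2_i1 stood higher at 80.0 RPKM.

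A pair of isoforms with the combined name glutamine synthetase/guanido kinase followed at a lower level. TRINITY_DN21943_c0_g1_i2 (2274 bp) had 2.94, 3.12 and 3.11 RPKM in A, B and C, and TRINITY_DN21943_c0_g1_i1 (2711 bp) had 3.00, 3.19 and 2.76. Their spreads were 1.07-fold and 1.12-fold, the narrowest of the named members. TRINITY_DN22130_c0_g1_i1 lay 27.8 ± 5.60 times above the first of them per length (SD, n = 3). The other 5 glutamine synthetase members were T. versicolor matches of 208 to 344 bp, and all had under 30 reads.

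Glutamate synthase, the partner enzyme that regenerates glutamate, was lower per length. TRINITY_DN30230_c0_g1_i1 (4062 bp) had 7.87 RPKM in A, 8.36 in B and 7.18 in C, and a spread of 1.13-fold in residual CPM. TRINITY_DN30186_c0_g1_i1 (1091 bp) had 1.93, 2.31 and 1.63 RPKM and TRINITY_DN30186_c1_g1_i1 (2869 bp) 1.45, 1.67 and 0.787 RPKM in A, B and C. The last of these was low in C, with a spread of 1.97-fold in residual CPM, just under the 2-fold limit used below.

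All 3 of these glutamate synthase transcripts matched the same P. strigosozonata entry, PUNSTDRAFT_144302, but belong to 3 assembler genes. Whether they are pieces of 1 gene or several genes was not resolved here. The highest glutamine synthetase transcript lay above the highest glutamate synthase transcript in every library, by 12.8-fold in A, 9.37-fold in B and 10.4-fold in C. The 2 T. versicolor matches of this class had reads in A only, 11 and 4.

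Glutamate dehydrogenase members were named for either coenzyme, and the NAD-specific name held nearly all the reads. TRINITY_DN12572_c0_g2_i1 (1443 bp, NAD-specific) had 58.0 RPKM in A, 76.9 in B and 80.0 in C, with 9351, 7558 and 7418 counts. Here library A was the low one, the reverse of the decarboxylase, and the spread was 1.34-fold. TRINITY_DN12572_c0_g1_i1 (1298 bp), of the same assembly component and with the same match PUNSTDRAFT_49580, had 18.8, 18.0 and 18.3 RPKM in A, B and C.

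The level of TRINITY_DN12572_c0_g2_i1 was 3.91 ± 0.713 times that of TRINITY_DN12572_c0_g1_i1 (SD, n = 3). Further transcripts with the same match were lower. TRINITY_DN30120_c0_g1_i1 (3088 bp) had 1.66, 1.95 and 1.38 RPKM in A, B and C, and TRINITY_DN12572_c0_g2_i1 lay 44.1 ± 12.4 times above it (SD, n = 3). Its isoform TRINITY_DN30120_c0_g1_i2 (2542 bp) had 1.12, 0.733 and 0.447 RPKM, with 319, 127 and 73 counts. This isoform was, like the decarboxylase, highest in A and lowest in C, and it had the second widest spread of the named members at 2.58-fold. With the isoforms of its assembler gene summed it no longer passed 2-fold.

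In all, 6 members from 4 assembler genes carried the match PUNSTDRAFT_49580, with mean levels from 0.0670 to 71.6 RPKM. Their class sum was 430.3 ± 41.5 residual CPM (SD, n = 3).

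NADP-specific glutamate dehydrogenase, usually the assimilating form in fungi, was represented by 3 isoforms of 1 assembler gene with the match PUNSTDRAFT_52105. TRINITY_DN30233_c2_g1_i2 (667 bp) had 3.42, 4.29 and 2.50 RPKM in A, B and C. TRINITY_DN30233_c2_g1_i1 (2249 bp) had 1.41, 1.38 and 1.05, and TRINITY_DN30233_c2_g1_i3 (1778 bp) 1.13, 1.23 and 1.30. Spreads were 1.60, 1.37 and 1.13-fold. The isoforms summed to 23.4 ± 2.43 residual CPM (SD, n = 3), or 1.64% ± 0.0545 of the member reads (SD, n = 3), against 30.4% ± 5.48 (SD, n = 3) for the NAD-specific name. Per length, the highest NAD-specific transcript exceeded the highest NADP-specific one 16.95-fold in A, 17.92-fold in B and 32.05-fold in C.

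**Figure D3:**
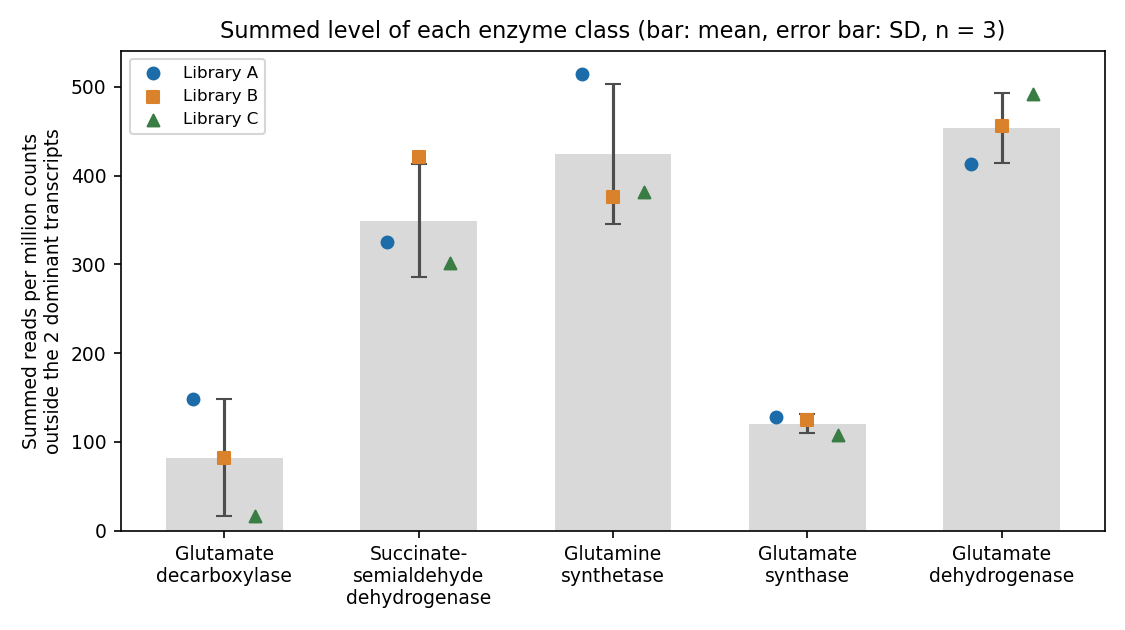
Summed residual CPM of each enzyme class, with the bar at the mean, the error bar as SD (n = 3) and 1 point for each library. The summed glutamate decarboxylase reads came to 148 in library A, 81.9 in B and 17.1 in C, while glutamate synthase stayed between 108 and 128.

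By class, glutamate dehydrogenase held 32.03% ± 5.45 of the member reads (SD, n = 3), glutamine synthetase 29.6% ± 3.98 and succinate-semialdehyde dehydrogenase 24.4% ± 3.94. Glutamate synthase held 8.42% ± 0.136 (SD, n = 3) and glutamate decarboxylase 5.54% ± 4.19 (SD, n = 3). The share of glutamate decarboxylase was 9.70% in A (exact 95% interval 9.44 to 9.96), 5.61% in B (5.36 to 5.86) and 1.31% in C (1.18 to 1.46), and its mean was 3.46% without library A. Glutamate dehydrogenase held 27.0% in A, 31.3% in B and 37.8% in C. Glutamate synthase had the steadiest share of the 5 classes, at 8.38%, 8.57% and 8.30%. With the succinic semialdehyde dehydrogenase transcript counted in, succinate-semialdehyde dehydrogenase held 47.7% of the enlarged total. With 1 isoform per assembler gene the shares were 35.2% for glutamate dehydrogenase, 32.2% for glutamine synthetase, 16.6% for succinate-semialdehyde dehydrogenase, 9.69% for glutamate synthase and 6.36% for glutamate decarboxylase.

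Per length, the order of the class sums was glutamate dehydrogenase (98.7 ± 11.2 RPKM), glutamine synthetase (91.5 ± 15.0), succinate-semialdehyde dehydrogenase (45.5 ± 10.3), glutamate synthase (11.2 ± 1.43) and glutamate decarboxylase (8.78 ± 6.76; SD, n = 3 each). Glutamate dehydrogenase and glutamine synthetase had overlapping ranges over the libraries, 85.7 to 105 and 80.7 to 109 RPKM, and did not differ beyond their spread. Glutamate synthase and glutamate decarboxylase also overlapped, at 9.59 to 12.3 and 1.77 to 15.3 RPKM. Succinate-semialdehyde dehydrogenase, at 38.7 to 57.3 RPKM, overlapped with neither neighbour. With 1 isoform per assembler gene it was at 23.4 ± 4.82 RPKM (SD, n = 3), 20.4 to 29.0 over the libraries, and the order of the 5 classes by mean was the same. With 3 libraries of 1 group these orders are descriptions and no test was made.

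**Figure D4:**
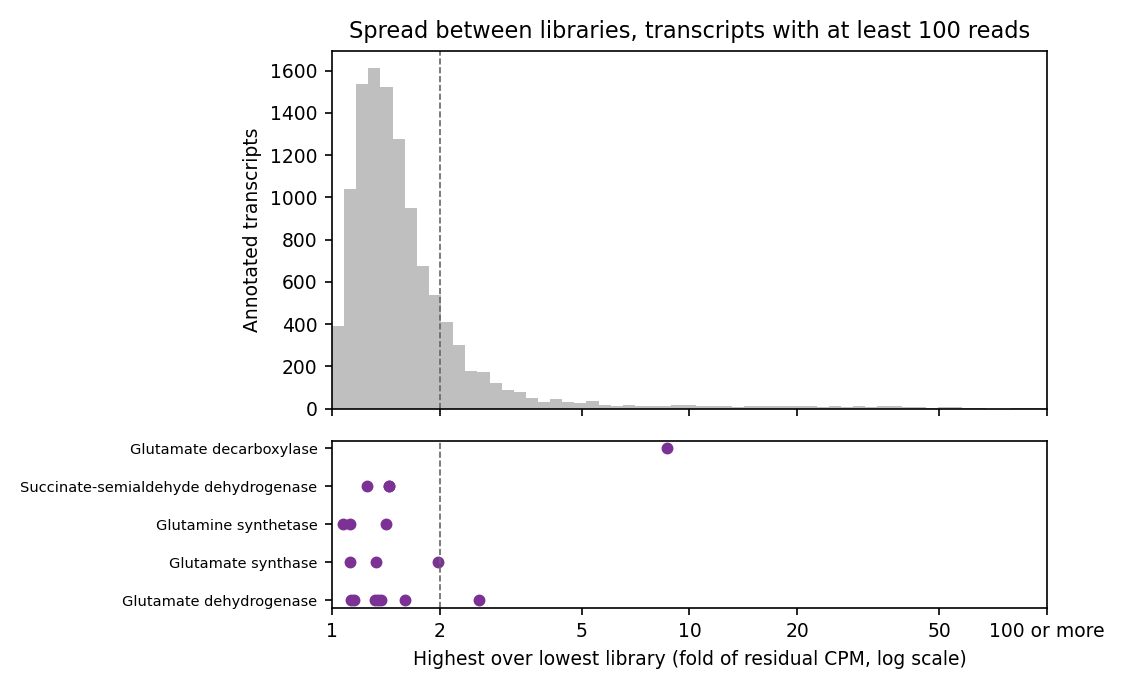
Fold between the highest and the lowest library in residual CPM (log scale), for 11455 annotated transcripts with at least 100 reads (histogram; folds over 100 are drawn at 100) and for the 17 members with as many reads, by enzyme (points below). Glutamate decarboxylase lies at 8.67-fold and 1 glutamate dehydrogenase isoform at 2.58-fold, and the other 15 lie under the dashed line at 2-fold.

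Over all named members, 13 of 17 differed by less than 1.5-fold between their highest and lowest library, and the median was 1.34-fold. More than 2-fold was found for 2 of 17, or 11.8%, while 17.3% of 11455 annotated transcripts with at least 100 reads and 14.9% of 7507 P. strigosozonata matches passed that limit. The count was 1 without library A, 0 without library C and 3 with CPM on all counts, TMM or DESeq2's size factors. It was 1 with isoforms summed to assembler genes. By class, spreads ran from 1.07-fold to 1.42-fold in glutamine synthetase, 1.25-fold to 1.45-fold in succinate-semialdehyde dehydrogenase, 1.13-fold to 1.97-fold in glutamate synthase and 1.13-fold to 2.58-fold in glutamate dehydrogenase. The lowest library was C for 11 of the 17 named members, B for 4 and A for 2, and the highest was A for 7, B for 7 and C for 3. The same shares over all annotated transcripts were not computed, so these counts are not read as a trait of the family. Some of the 17 are also isoforms of the same assembler gene and not separate measurements.

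The 12 members outside the named ones were short, 208 to 729 bp, with 3 to 60 reads each. Of these, 9 matched T. versicolor and 3 P. strigosozonata. Reads were in A alone for 5 members and in B alone for 2, and 8 members had 0 reads in at least 1 library. Of 21 members with at least 20 reads, 1 had more than 90% of its depth-scaled reads in A, the glutamine synthetase TRINITY_DN9922_c0_g1_i1 with 25, 0 and 0 counts, while 2.94% of annotated transcripts did. Across the assembly, 434 of 5064 T. versicolor matches with at least 20 reads, or 8.57%, passed that limit, against 5 of 8876 P. strigosozonata matches, or 0.0563%. The decarboxylase TRINITY_DN26707_c1_g1_i1 had 59.99% of its depth-scaled reads in A.

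Neighbouring steps were described from 8 word lists on the same product names, with the members removed. None of the 127 list transcripts with at least 100 reads had a spread as wide as the decarboxylase, against 2.26% of 11455 annotated transcripts with as many reads. Among 7507 P. strigosozonata matches with as many reads the share was 0.706%. Of the 127, 10, or 7.87%, passed 2-fold, against 17.3% of the 11455 annotated transcripts. The counts of single lists below have the same background share. The list from 2-oxoglutarate to succinate (36 transcripts, 8 with at least 100 reads) summed to 1302 ± 94.4 residual CPM (SD, n = 3), and its widest spread was 1.67-fold. Most of its transcripts were hardly read, and its median level over all 36 was 0.111 ± 0.158 RPKM (SD, n = 3). Of the steps that the GABA shunt bypasses, the E1 component of 2-oxoglutarate dehydrogenase, TRINITY_DN29992_c0_g1_i1, had 16.7, 21.4 and 18.1 RPKM in A, B and C. The beta chain of succinyl-CoA synthetase, TRINITY_DN30384_c0_g1_i1, had 6.31, 5.89 and 5.43 RPKM. Their spreads were 1.16-fold and 1.19-fold. Other transcripts of these steps had wider spreads. The dihydrolipoamide succinyltransferase TRINITY_DN28861_c0_g1_i1 (36.2 ± 7.79 RPKM; SD, n = 3) had 1.39-fold. The succinate-CoA ligase isoforms TRINITY_DN28783_c0_g1_i1 (5.89 ± 1.10 RPKM) and TRINITY_DN28783_c0_g1_i2 (4.91 ± 0.686; SD, n = 3) had 1.57-fold and 1.46-fold. Of the enzyme that takes up succinate, the iron-sulphur subunit of succinate dehydrogenase, TRINITY_DN22211_c0_g1_i1, had 79.4 ± 14.7 RPKM and a succinate dehydrogenase transcript, TRINITY_DN25265_c0_g1_i1, 42.1 ± 9.92 (SD, n = 3). Isocitrate dehydrogenase, which supplies 2-oxoglutarate, had 15.8 ± 3.27 RPKM in TRINITY_DN28390_c0_g1_i1 and 5.69 ± 1.05 in its isoform TRINITY_DN28390_c0_g1_i2 (SD, n = 3).

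Uptake proteins for ammonium and amino acids (87 transcripts) had the largest sum of the 8 lists, 2070.0 ± 252 residual CPM (SD, n = 3), and 3 of 44 transcripts with at least 100 reads passed 2-fold. Their highest were the ammonium transporter TRINITY_DN23020_c1_g2_i1 at 89.2 ± 18.4 RPKM and the general amino acid permease TRINITY_DN25564_c0_g1_i1 at 53.7 ± 8.29 (SD, n = 3). The list of gamma-glutamyl, glutamate-cysteine ligase, glutamate kinase, acetylglutamate and folylpolyglutamate names (26 transcripts) summed to 1299 ± 255 residual CPM (SD, n = 3). Its highest were isoforms of a gamma-glutamyltranspeptidase, an enzyme that acts on glutathione, at 42.8 ± 12.3 and 42.5 ± 12.1 RPKM (TRINITY_DN23399_c0_g1_i1 and TRINITY_DN23399_c0_g1_i2; SD, n = 3). These isoforms had near-equal counts, such as 13486 and 14236 in A, and are not separate measurements. Without the 11 gamma-glutamyltranspeptidase transcripts, which held 74.3% of the reads of the list, the sum was 337 ± 46.7 residual CPM (SD, n = 3), led by the catalytic subunit of glutamate-cysteine ligase, TRINITY_DN28460_c0_g1_i1, at 27.4 ± 5.70 RPKM (SD, n = 3). In the whole list 1 of 14 passed 2-fold.

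The amide and ammonia list (45 transcripts) summed to 612 ± 45.2 residual CPM (SD, n = 3), and 3 of 32 passed 2-fold. Its highest were an asparaginase, which releases ammonium from asparagine, TRINITY_DN28761_c1_g1_i1 at 15.4 ± 1.67 RPKM, and a urease accessory protein, TRINITY_DN22185_c0_g1_i3 at 7.36 ± 1.48 (SD, n = 3). The proline and arginine list (49 transcripts, 29 of them with the wider name arginase/deacetylase) summed to 599 ± 14.6 residual CPM (SD, n = 3), and 1 of 21 passed 2-fold. It was led by delta-1-pyrroline-5-carboxylate dehydrogenase, which forms glutamate from the proline pathway, TRINITY_DN27252_c0_g1_i1 at 24.2 ± 3.22 RPKM, and ornithine decarboxylase, TRINITY_DN28896_c0_g1_i1 at 13.3 ± 3.49 (SD, n = 3).

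Aminotransferases and their near names (17 transcripts) summed to 120 ± 13.5 residual CPM (SD, n = 3), and none of 7 with at least 100 reads passed 2-fold. Aspartate aminotransferase TRINITY_DN19201_c0_g1_i1 had 10.6 ± 1.42 RPKM and acetylornithine aminotransferase TRINITY_DN22330_c0_g1_i1 7.11 ± 1.38 (SD, n = 3). The nitrate list held only products named nitrite reductase (11 transcripts) and was the smallest in sum, at 37.6 ± 5.60 residual CPM (SD, n = 3). Of its 4 transcripts with at least 100 reads 2 passed 2-fold, and the highest, TRINITY_DN24853_c0_g1_i1 and TRINITY_DN30262_c1_g1_i1, had 3.90 ± 0.732 and 2.16 ± 0.0809 RPKM (SD, n = 3).

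The 3 named products nearest to the decarboxylase in level and library pattern were sought among 6821 annotated transcripts, by the distance of their log2 residual CPM over the 3 libraries. They were the cyclophilin TRINITY_DN19693_c0_g1_i2 (distance 1.05), the terpenoid synthase TRINITY_DN24936_c0_g1_i1 (1.48) and the delta9-fatty acid desaturase TRINITY_DN8524_c0_g1_i1 (1.499). The cyclophilin had 132, 83.8 and 35.0 residual CPM in A, B and C. All 3 shared the library order, which the choice by distance favours, and their spreads were 3.77, 2.86 and 2.78-fold. The distance also asks for a similar level, so it passes over transcripts as widely spread at other levels. Of 11455 annotated transcripts with at least 100 reads, 259 had at least 8.67-fold, counting the decarboxylase itself. Of these, 41 were highest in A and lowest in C. The likeness was measured over 3 libraries only.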

How the data were processed

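The authors deposited whole-number read counts per assembled transcript, not normalised, with transcript lengths, and an annotation table described in its header as raw output of a search against a database of their own. The submitters' processing notes name SAMtools 0.1.19, Bowtie2 2.2.6 and cutadapt 1.2.1. Not given in the sources used here are the assembler, the search limits, the counting rule and whether strand was used. Repeated annotation lines were dropped. Residual CPM, RPKM and exact (Clopper-Pearson or Poisson) 95% intervals were computed with Python 3.11.15 and scipy 1.17.1. A library at 0 was set to a floor of 3 counts for folds. Scaling and dispersion came from edgeR 4.0.16 (intercept only, no shrinkage, transcripts of at least 10 reads) and DESeq2 1.42.0. On simulated counts, a true coefficient of variation of 1 gave a median of 0.883 over 200 transcripts and 0.3 gave 0.243. In Poisson counts without variation between replicates, 200 of 200 transcripts with a planted 8-fold spread passed 2-fold, as did 63 of 23994 unchanged ones. The real libraries also varied between replicates, with a common coefficient of 0.482, so this checks the calculation only. Members with at least 100 reads and 300 bp were named, and the 2 highest of each word list. Beyond that rule, transcripts of the steps that the GABA shunt bypasses and the leading glutamate-cysteine ligase were named too. Members and lists were chosen with earlier results of these data known. Transcript sequences were not used here.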

Additional observations from a re-analysis of the deposited data

How the results depend on the processing

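Of 90 alternative values, 61 stayed within the replicate SD, or within 1.5 times for counts and folds, and 29 moved. Leaving 1 library out cannot move a mean of 3 libraries beyond their SD. Levels and shares with 1 library left out were therefore bound to stay, and say nothing about stability. The summed level of 1430 residual CPM was 1032 with P. strigosozonata matches only, 1091 without T. versicolor matches, 1243 with 1 isoform per assembler gene and 2063 with the succinic semialdehyde dehydrogenase transcript (the last 2 chosen after seeing the data). Class shares for the same first pair of settings and for summed RPKM were 7.62%, 7.22% and 3.35% for glutamate decarboxylase, 36.1%, 34.2% and 35.8% for glutamine synthetase, 11.7%, 11.04% and 4.36% for glutamate synthase, 44.5%, 42.1% and 38.8% for glutamate dehydrogenase and 0.06615%, 5.50% and 17.7% for succinate-semialdehyde dehydrogenase, which was 47.7% with the added transcript. With 1 isoform per assembler gene the share of glutamate synthase was 9.69% and that of succinate-semialdehyde dehydrogenase 16.6%. The first 2 settings take transcripts out of the total by construction, and summed RPKM weights them by length. The decarboxylase level was 16.8 in TPM and 27.7 RPKM on the outside counts, which are other denominators. The median member was at 1.66 RPKM with at least 10 reads, 2.90 with at least 500 bp and 1.66 with P. strigosozonata matches only.

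With 1 library left out, the decarboxylase spread ran from 1.81 to 8.67-fold (an alternative chosen after seeing the data) and the count of members over 2-fold from 0 to 2. That count was 1 with assembler genes summed. No paired analysis was possible because all libraries form 1 group and the count columns carry no replicate numbers. For a single library the limit was 3 counts, or 0.0897 to 0.152 residual CPM, which bears on the 12 members with few reads.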
